A study of Mus musculus with 3 samples.

Results

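Small nucleolar RNA host genes are transcribed into long RNAs whose introns hold small nucleolar RNAs (snoRNAs). Gas5, Snhg1, Snhg3, Snhg5, Snhg6, Snhg8, Snhg12 and Snhg15 were chosen by name, 8 of the 55536 genes in the deposited tables, and all 8 matched a single row. They were measured in total RNA of blood monocytes, the circulating precursors of macrophages, from adult C57BL/6J mice aged 5 to 6 weeks. The labels give 1 group of 3 libraries, biological replicates 1, 2 and 3, each made from 100 ng of rRNA-depleted RNA with a ScriptSeq kit, with no treatment and no altered allele recorded. Fragments were recorded at 200 to 594 bp in library 1, 200 to 491 bp in library 2 and 200 to 1000 bp in library 3. All 3 libraries carry 1 donor record and sex was not collected. Whether the replicates came from separate mice is not stated there, so p-values cover the variation among these 3 libraries, which may be technical.

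When a host transcript is spliced, the snoRNA is trimmed out of the removed intron and packed with proteins into a particle. There the snoRNA guides ribose methylation (box C/D snoRNAs) or pseudouridylation (box H/ACA snoRNAs) of other RNAs, mainly ribosomal RNA. The spliced exons encode no conserved protein, and for several hosts they are known to be degraded by nonsense-mediated decay once ribosomes read them. Several hosts also begin with a pyrimidine-rich tract of the kind found in mRNAs of the translation machinery, which ties their translation to growth signals through mTORC1.

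The start sites were searched for a run of C and T and for a TATA box, the promoter element that positions transcription starts. The run could begin away from the start, so a match is a wider feature than such a tract. RefSeq start windows (build GRCm38.p6) were available for 7 of the 8 genes, 8 windows in all because Gas5 has 2. Snhg6 was not among them. Each window is printed with 40 bases before the start and the first 35 bases of the transcript, 5′ to 3′ on the gene's strand. Capitals mark TATA, searched on the gene's strand between 40 and 20 bases before the start, and the longest unbroken run of C and T of at least 5 bases that begins in the 10 bases before or the first 20 bases after the start.
Gas5 upstream start, chr1:161034561-161034635 (+): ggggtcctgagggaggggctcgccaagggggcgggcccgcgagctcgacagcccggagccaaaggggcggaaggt
Gas5 downstream start, chr1:161035126-161035200 (+): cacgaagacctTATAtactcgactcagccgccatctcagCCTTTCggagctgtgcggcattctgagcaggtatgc
Snhg1, chr19:8723447-8723521 (+): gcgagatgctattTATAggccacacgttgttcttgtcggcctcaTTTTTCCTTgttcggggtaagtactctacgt
Snhg3, chr4:132353652-132353726 (-): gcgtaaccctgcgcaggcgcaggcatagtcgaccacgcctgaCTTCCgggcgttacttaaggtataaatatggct
Snhg5, chr9:88522863-88522937 (-): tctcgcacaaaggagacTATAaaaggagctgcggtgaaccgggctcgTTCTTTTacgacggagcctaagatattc
Snhg8, chr3:123508302-123508376 (-): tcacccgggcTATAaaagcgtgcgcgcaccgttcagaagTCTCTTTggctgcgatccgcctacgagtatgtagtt
Snhg12, chr4:132308638-132308712 (+): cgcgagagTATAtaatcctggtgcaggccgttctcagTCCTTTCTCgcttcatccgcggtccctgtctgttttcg
Snhg15, chr11:6528726-6528800 (-): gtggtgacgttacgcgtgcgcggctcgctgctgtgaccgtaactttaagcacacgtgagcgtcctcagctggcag

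A TATA lay in the searched stretch of 5 of the 8 member windows, at the downstream Gas5 start, Snhg1, Snhg5, Snhg8 and Snhg12, against 5.49% of the 32851 RefSeq start windows of all genes. Its first base stood 29 bases before the downstream Gas5 start, 27 before Snhg1, 23 before Snhg5, 30 before Snhg8 and 32 before Snhg12. A pyrimidine run was present in 6 of the 8, against 48.2% of all windows, and both features together in 5 of the 8, against 2.89%. The runs of Snhg1 and Snhg12 were the longest, at 9 bases each. The run began 1 base before the downstream Gas5 start and the Snhg8 start, and 3 before that of Snhg12. It began 2 bases after the start in Snhg3, 4 after in Snhg1 and 7 after in Snhg5, so those transcripts do not begin with the run. The upstream Gas5 start and Snhg15 had neither feature in these stretches. Snhg3 had a run of 5 bases and no TATA in the searched stretch, although its printed window holds a TATA after the start. These are matches of letters, not tested sites.

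The libraries differed in ways that bear on every result. Expected counts, the authors' estimated reads per gene, totalled 27.2, 26.5 and 19.9 M in libraries 1, 2 and 3. All 10 of 10 monocyte markers were above 1 TPM (a relative transcript abundance, corrected for length), and they summed to 2443, 2052 and 1476 TPM in libraries 1, 2 and 3. The lysozyme gene Lyz2 had the highest level among them, at 1448, 1238 and 718 TPM. Of the 10, 4 were lowest in library 3, Lyz2 included. Another 5 were highest there, among them Csf1r at 69.8, 52.4 and 86.6 TPM. Markers of other blood cells were also present, and several moved with library 3. The 8 NK cell markers summed to 679, 572 and 1648 TPM with 8 of 8 highest in library 3, and the 6 platelet markers to 15.3, 11.2 and 96.6 TPM with 6 of 6 highest there. The 8 T cell markers summed to 22.9, 17.5 and 51.5 TPM with 7 of 8 highest in library 3, although Cd3e averaged 0.09 TPM. Lck made up most of the T cell sum, at 17.5, 11.5 and 42.5 TPM. The 6 red cell markers summed to 3532, 3325 and 262 TPM with 5 of 6 lowest in library 3 and Klf1 at 0. The 6 neutrophil markers summed to 139, 125 and 9.08 TPM with 4 of 6 lowest in library 3 and Ly6g at 0. Retnlg made up most of that sum, at 124, 114 and 0 TPM, and Csf3r was highest in library 3, at 5.99, 6.64 and 8.09 TPM. Basophil and eosinophil markers summed to 22.5, 23.5 and 3.47 TPM, with Epx at 0, and B cell markers to 91.8, 91.7 and 82.1 TPM. The part of this cell mixture in the results on host genes was not tested. In such bulk samples, fewer cells of a type and less RNA per cell cannot be told apart.

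These 8 host genes stood high among annotated long noncoding genes, and Gas5 led. By mean TPM they ranked from 7 (Gas5) to 78 (Snhg3) among 13374 such genes. Together they held 1.97%, 1.89% and 2.34% of the summed TPM of long noncoding genes in libraries 1, 2 and 3. The 8 genes summed to 146, 157 and 179 TPM in libraries 1, 2 and 3 (161 ± 16.4, SD, n = 3). Gas5 alone held 44.0%, 36.0% and 43.6% of that sum. On the scale of protein-coding genes alone, 1 TPM of these tables equals 9.16, 10.2 and 9.34 TPM.

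Gas5 (ENSMUSG00000053332.13, chr1:161034422-161038539, plus strand, mm10) was found as a transcript that accumulates in growth-arrested cells, and its introns encode a cluster of box C/D snoRNAs. It reached 64.4, 56.6 and 77.9 TPM in libraries 1, 2 and 3 (66.3 ± 10.7, SD, n = 3), from 4711, 4066 and 5362 expected counts. Library 3 was highest and library 2 lowest. Gas5 ranked 7 by mean TPM among 13374 annotated long noncoding genes, and 97.8% of the tested genes had a lower mean.

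Snhg1 (ENSMUSG00000108414.1, chr19:8723475-8726443, plus strand) hosts a run of box C/D snoRNAs together with Snord22. Its levels were 18.8, 33.0 and 26.1 TPM (25.9 ± 7.10, SD, n = 3), with library 2 highest and library 1 lowest. Snhg15 (ENSMUSG00000085156.7, chr11:6525591-6528760, minus strand), host of the box H/ACA RNA Snora9, gave 21.02, 24.65 and 12.45 TPM (19.4 ± 6.26, SD, n = 3). It was the only member of the 8 with its lowest value in library 3. Snhg8 (ENSMUSG00000104960.1, chr3:123507552-123508404, minus strand), host of Snora24, gave 17.1, 13.0 and 24.5 TPM (18.2 ± 5.84, SD, n = 3). Its order of libraries was that of Gas5, with library 3 highest and library 2 lowest.

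Snhg5 (ENSMUSG00000097195.9, chr9:88521050-88522929, minus strand), which carries the box C/D pair Snord50a and Snord50b, gave 11.4, 8.14 and 17.0 TPM (12.2 ± 4.48, SD, n = 3). Library 3 was again highest and library 2 lowest. Snhg12 (ENSMUSG00000086290.9, chr4:132308623-132311024, plus strand), host of 3 different H/ACA RNAs and of Snord99, gave 4.58, 11.0 and 7.73 TPM (7.77 ± 3.22, SD, n = 3). Its highest TPM was 2.40 times its lowest, the widest range of the 8 on this scale, but its CPM (reads per library total, not divided by length) differed 1.77-fold, less than the 2.37-fold of Snhg15. Snhg6 (ENSMUSG00000098234.7, chr1:9941959-9944118, minus strand), host of Snord87, gave 5.74, 5.92 and 7.10 TPM (6.25 ± 0.739, SD, n = 3), the narrowest range at 1.24 times. Snhg3 (ENSMUSG00000085241.7, chr4:132348014-132353686, minus strand), host of the Snora73 RNAs that act in ribosomal RNA processing, was lowest at 3.43, 4.85 and 5.90 TPM (4.73 ± 1.24, SD, n = 3), from 101, 162 and 114 expected counts.

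**Figure D1:**
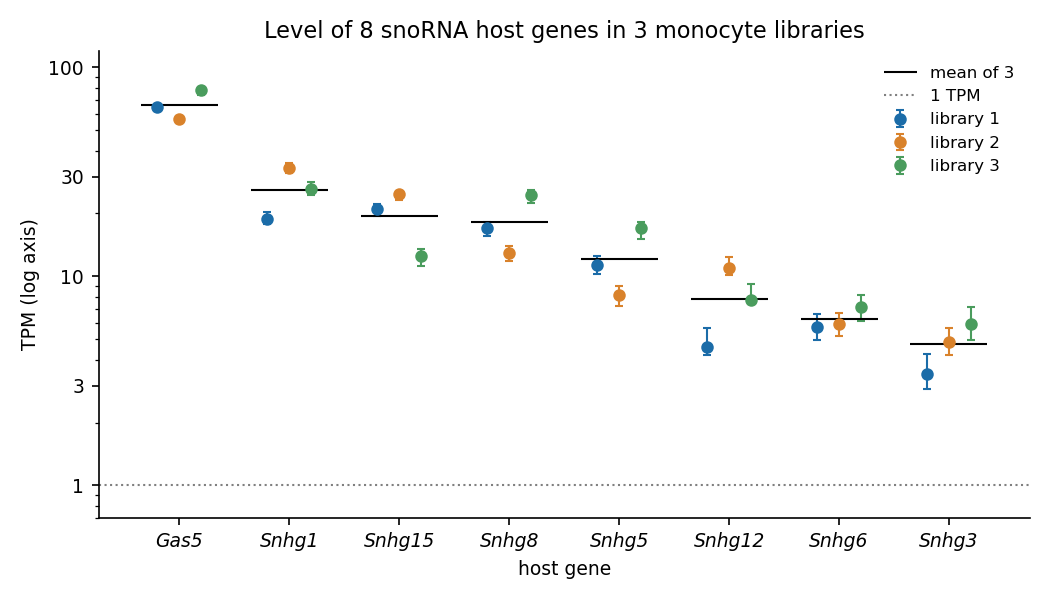
Level of each host gene in TPM (log axis) in libraries 1, 2 and 3; points are library values, error bars the interval deposited with each value, black lines the mean of 3 and the dotted line 1 TPM. Gas5 lies between 56.6 and 77.9 TPM in all 3 libraries and Snhg3, the lowest, between 3.43 and 5.90 TPM.

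All 8 genes passed the filter of 10 summed counts, and all 8 were above 1 TPM by edgeR's quasi-likelihood test with Benjamini-Hochberg adjustment over 17678 genes. Of all genes tested, 43.2% were above that level and 3.45% below it, so the count alone does not set the hosts apart. Among 2960 long noncoding genes tested, 191 (6.45%) were above it. The fitted level ran from 6.05 on the log2 scale for Gas5 (adjusted p = 2.2e-13) to 2.24 for Snhg3 (adjusted p = 4.6e-05), each with all 3 libraries above 1 TPM. The median of the 8 mean levels was 15.2 TPM, against 1.18 TPM over all genes tested. The 8 were chosen with earlier results of these data known, so these comparisons describe them and do not test them.

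In the order of means, 3 of the 7 neighbouring pairs differed by more than the SD of their log2 difference and in the same direction in 3 of 3 libraries. Gas5 exceeded Snhg1 by 1.38 ± 0.53 (log2, mean and SD, n = 3), Snhg8 exceeded Snhg5 by 0.59 ± 0.07 and Snhg6 exceeded Snhg3 by 0.42 ± 0.26. An exact two-sided sign-flip test gave p = 0.25 for each, the smallest that 3 libraries allow, and 0.583 after adjustment over 7 pairs. Snhg1 and Snhg15, Snhg15 and Snhg8, Snhg5 and Snhg12, and Snhg12 and Snhg6 did not differ beyond their spread. By expected counts not divided by length, Snhg8 exceeded Snhg5 by only 0.13, while Snhg1 exceeded Snhg15 by 1.34, Snhg12 exceeded Snhg6 by 1.57 and Snhg6 exceeded Snhg3 by 0.84 (log2). Without library 2, Snhg15 stood 0.34 below Snhg8 and Snhg12 0.10 below Snhg6 (log2).

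How high the genes stood depended on the deposited table. In the transcript tables made directly from reads, summed per gene, the 8 genes reached 268 TPM on average, 1.67 times the gene tables. The ratio ran from 1.33 for Snhg1 to 1.94 for Snhg8, and Gas5 had 115, 88.9 and 123 TPM there. Snhg6 was less even in those tables, at 8.98, 7.93 and 14.4 TPM. Snhg15 was also lowest in library 3 there, by less, at 41.7, 37.9 and 30.3 TPM. In the gene tables of the older M4 annotation, 6 of the 8 genes were matched, and their means were 1.01 to 1.27 times those in M21.

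The 8 hosts differed in how evenly they stood across libraries. Among protein-coding genes averaging at least 1 TPM, the median gene stood 0.26 higher in library 3 than in library 1 and 0.43 higher than in library 2 (log2), so differences were taken relative to it. On that scale Gas5 differed by 0.02 between libraries 3 and 1 and by 0.03 between libraries 3 and 2, and its SD over 3 libraries was 0.016. Snhg15 stood 1.01 lower in library 3 than in library 1 and 1.41 lower than in library 2. Snhg12 stood 1.42 higher in library 2 than in library 1, and Snhg1 0.98 higher. Snhg8 and Snhg5 were 0.49 and 0.63 higher in library 3 than in library 2.

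The median SD over the 8 genes was 0.33 (log2), the same to 2 decimals as the 0.33 over 9293 tested genes at 1 TPM or more and below the 0.51 over 364 long noncoding genes. Without the correction for the general shift it was 0.43, against 0.36 over the tested genes. Of the 8, 4 had an SD under the median of tested genes. For 6 of the 8, the intervals deposited with the TPM values did not overlap between any 2 libraries. The share over all genes tested was not counted, so this count does not set the hosts apart. Those of Snhg6 overlapped in all 3 pairs and those of Snhg3 in 2. The sources used here do not give the level that these intervals cover.

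Ranges and orders of libraries changed when counts were not divided by length. TPM divides by an effective length that the quantifier averages over its estimated isoforms. Gas5 had effective lengths of 651, 591 and 906 bases. Its CPM differed 1.76-fold between libraries, at 173, 153 and 269, where its TPM differed 1.37-fold. Snhg12 had 990, 619 and 1125 bases, and its CPM of 18.8, 31.2 and 33.2 put library 3 highest, while TPM put library 2 highest. Snhg1 likewise moved from library 2 highest in TPM to library 3 highest in CPM, at 63.1, 97.1 and 106. Snhg15 had 436, 446 and 447 bases, and its CPM of 37.9, 50.3 and 21.2 kept library 3 lowest. Its CPM differed 2.37-fold and its TPM 1.98-fold at these near-equal lengths. CPM and TPM also differ in how each library is scaled, and the part of length was not tested.

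The transcripts behind these levels were spread over many annotated forms. The 8 genes have 76 annotated transcripts in GENCODE M21, 25 of them in Gas5 and 18 in Snhg1, and 37 held 10% or more of their gene's TPM in at least 1 library. The shares are estimates that the quantifier makes from short reads. The same transcript led in all 3 libraries for 1 gene of 8, Snhg3, where Snhg3-204 held 92.9%, 100% and 92.6%.

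Gas5-224, a spliced form of 12 exons and 502 bases, held 37.0%, 42.8% and 21.5% of Gas5. Gas5-218, a retained-intron transcript of 4 exons and 2556 bases that keeps intron sequence in the RNA, held 9.8%, 5.8% and 22.8%, and led in library 3. Library 3 thus had the lowest share of Gas5-224 and the highest of Gas5-218. Other Gas5 forms reached 10% in 1 library each. Gas5-210 held 14.1% in library 1, Gas5-214 11.4% in library 1, Gas5-202 13.6% in library 2 and Gas5-223 14.3% in library 3.

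In Snhg1 the spliced Snhg1-211, of 10 exons, held 25.4%, 19.9% and 6.3%. Retained-intron forms led in each library. They were Snhg1-210 at 33.9% in library 1, Snhg1-213 at 37.0% in library 2 and Snhg1-215, of 2728 bases, at 27.0% in library 3. Snhg1-201 held 2.5%, 2.2% and 25.0%, Snhg1-203 7.6%, 4.0% and 12.5%, and Snhg1-214 7.6%, 0% and 11.0%, each highest in library 3. The spliced Snhg1-205 held 15.3% in library 2 and 0% in libraries 1 and 3.

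Snhg8 was divided between the spliced Snhg8-201, of 3 exons, at 58.0%, 54.2% and 39.3%, and the unspliced single-exon Snhg8-202 at 42.0%, 45.8% and 53.7%. Snhg5-203 led Snhg5 in libraries 2 and 3, at 31.8%, 32.7% and 41.9%, and Snhg5-201 led in library 1, at 35.6%, 15.4% and 5.8%. Of the other Snhg5 forms, Snhg5-204 held 12.6%, 10.4% and 19.7%, Snhg5-206 12.0%, 12.2% and 18.1%, Snhg5-205 2.9%, 16.3% and 11.0% and Snhg5-202 5.1%, 13.1% and 3.6%. The first 3 of these are annotated as retained introns.

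Snhg15, Snhg12 and Snhg6 have no annotated retained-intron transcript. Snhg15-204 held 43.1%, 38.9% and 14.99%, Snhg15-202 29.3%, 48.5% and 39.7%, and Snhg15-203 27.3%, 12.6% and 37.7%. Snhg12-208, of 1368 bases, held 34.8%, 13.5% and 29.2%, Snhg12-204, of 1416 bases, 11.9%, 13.2% and 37.6%, and Snhg12-202, of 422 bases, 24.8%, 28.4% and 0%. Of its other forms, Snhg12-207 held 19.1%, 11.2% and 0%, Snhg12-206 6.1%, 14.0% and 12.6%, Snhg12-209 3.3%, 13.1% and 4.8%, and Snhg12-210 0%, 1.1% and 12.6%. The forms of 422 and 509 bases, Snhg12-202 and Snhg12-207, were thus both at 0% in library 3. The leading form of Snhg12 changed with the table. In the tables made from alignments Snhg12-208 held 0%, 0.64% and 0%, and Snhg12-210 held 49.3%, 13.6% and 40.2% and led in libraries 1 and 3. For 5 of the 8 genes the same transcript led in both kinds of table in every library. Besides Snhg12, the exceptions were Snhg15 in library 3, led by Snhg15-203 at 50.2% from alignments, and Snhg5 in library 1, led by Snhg5-203 at 45.2%. Snhg6-203 held 39.6%, 77.7% and 14.0%, Snhg6-202 19.3%, 3.2% and 53.2%, Snhg6-204 23.3%, 8.0% and 8.0%, and Snhg6-205 17.8%, 3.3% and 24.8%.

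**Figure D2:**
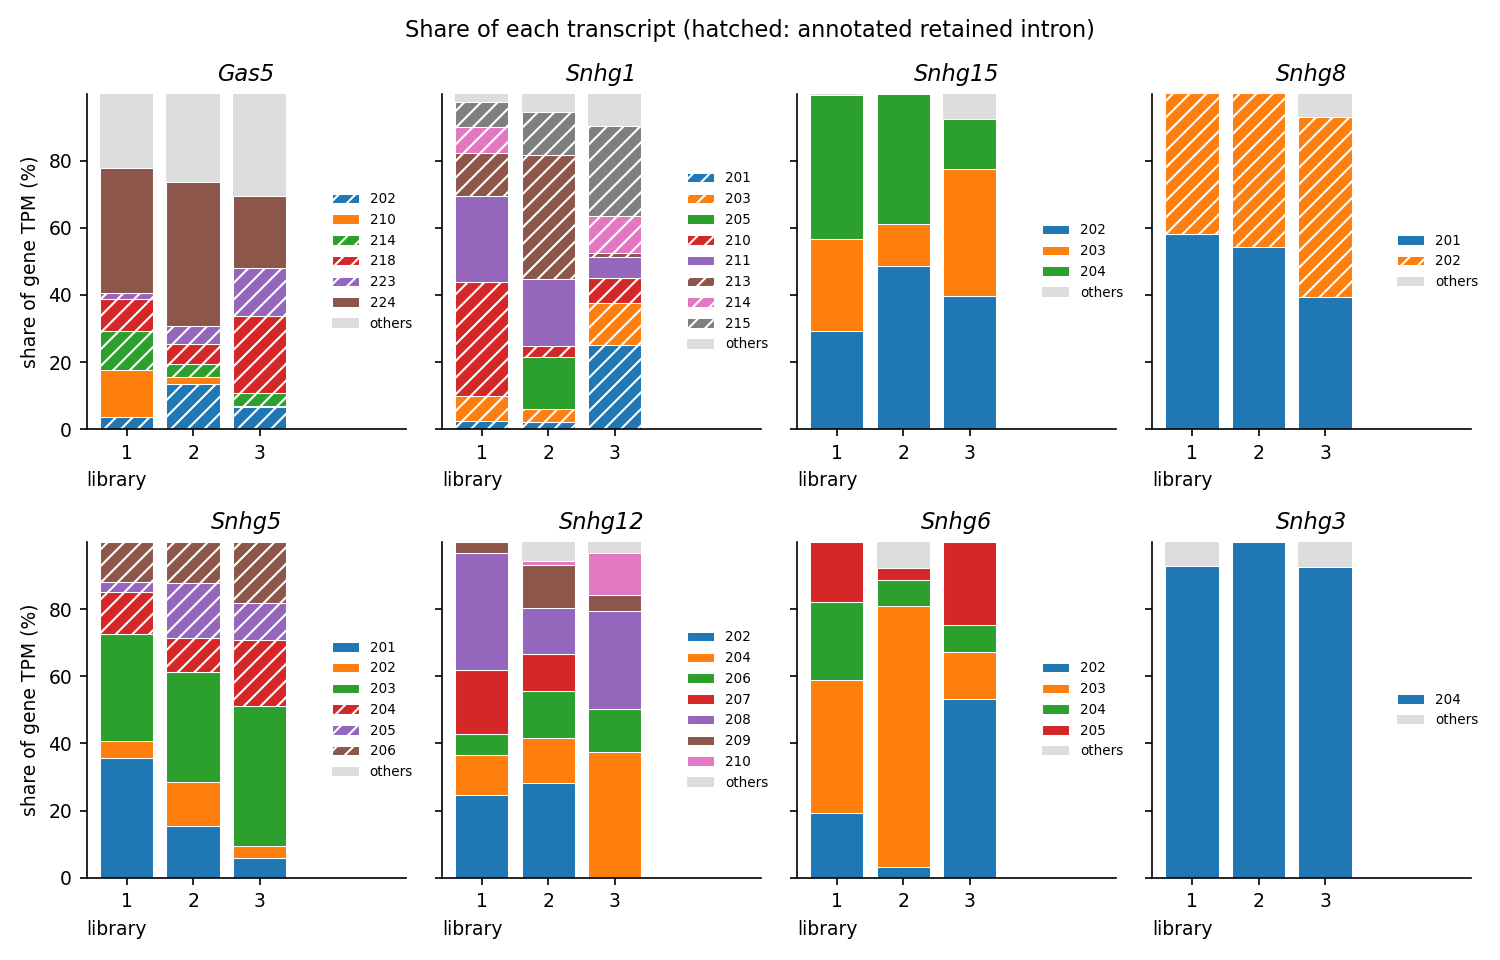
Share of each gene's TPM (percent) held by each transcript in libraries 1, 2 and 3, from the read-based transcript tables; each colour is 1 transcript that reached 10% in any library, grey the sum of the others and hatching an annotated retained intron. Snhg3-204 fills 92.6% or more of Snhg3 in every library, and the hatched part of Gas5, Snhg1, Snhg8 and Snhg5 is largest in library 3.

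Retained-intron transcripts are annotated for 4 of the 8 genes, and in 4 of these 4 their share was highest in library 3. Gas5 had 48.9%, 55.3% and 78.2% of its TPM in them, Snhg1 74.4%, 63.8% and 93.7%, Snhg8 42.0%, 45.8% and 53.7%, and Snhg5 27.4%, 38.9% and 48.8%. Over 6005 genes with both kinds of transcript and 100 or more counts in each library, the median share was 20.5%, 20.1% and 24.9%, and 44.8% of those genes had their highest share in library 3. All 4 hosts stood above the median gene in each library. Snhg5 was nevertheless under the upper quartile of those genes in library 1 (39.7%) and in library 2. Retained introns make up 20 of the 25 annotated transcripts of Gas5 and 14 of the 18 of Snhg1. They make up 1 of the 3 of Snhg8 and 3 of the 6 of Snhg5. The part of these annotated numbers in the shares was not tested. The 4 genes also had their highest share in library 3 in the transcript tables made from alignments and by shares of estimated counts. Library 3 also had the longest recorded fragments, and its part in this difference was not tested.

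**Figure D3:**
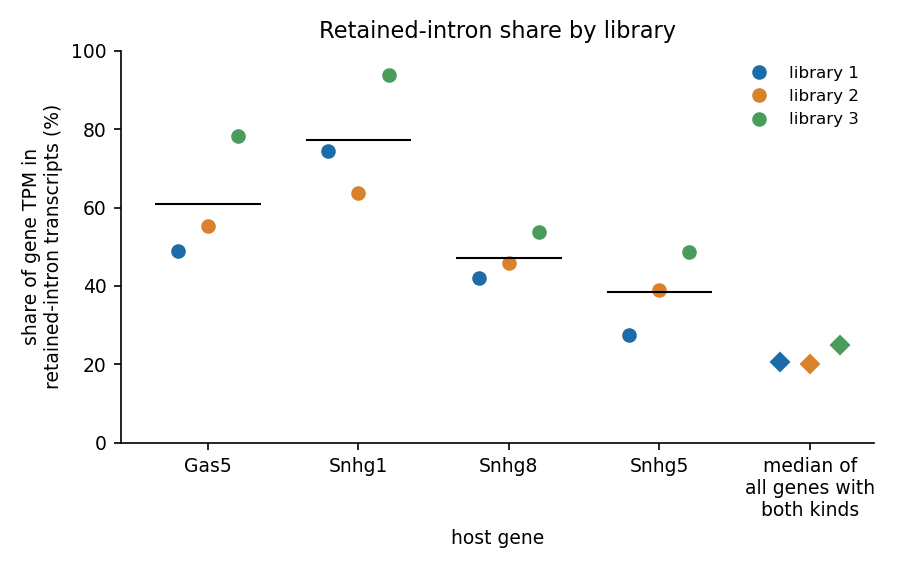
Share of gene TPM (percent) in annotated retained-intron transcripts for the 4 hosts that have them; circles are libraries 1, 2 and 3, black lines the mean of 3, and diamonds the median over 6005 genes with both kinds of transcript. Library 3 is highest for each host, from 48.8% in Snhg5 to 93.7% in Snhg1.

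The introns hold 30 annotated snoRNA genes on the hosts' strand, 10 in Gas5, 8 in Snhg1, 5 in Snhg12, 2 each in Snhg5 and Snhg3, and 1 each in Snhg15, Snhg8 and Snhg6. Snord80 in Gas5 and Snora16a in Snhg12 each have 2 overlapping entries, which count separately among the 30. Sequences are from GENCODE M21 (mm10), 5′ to 3′ on the snoRNA's strand, and are shown for a snoRNA with reads from each host where there was one. Capitals mark TGATGA starting in the first 15 bases and CTGA starting in the last 15 (the C and D boxes), or otherwise ACA starting in the last 9 bases (the ACA box), all on the gene's strand.
Snord47 in Gas5, chr1:161038082-161038158 (+): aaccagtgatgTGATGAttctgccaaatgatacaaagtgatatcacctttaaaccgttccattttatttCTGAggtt
Gm22357 in Gas5, chr1:161036057-161036139 (+): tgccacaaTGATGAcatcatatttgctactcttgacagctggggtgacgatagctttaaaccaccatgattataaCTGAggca
Snord87 in Snhg6, chr1:9942463-9942549 (-): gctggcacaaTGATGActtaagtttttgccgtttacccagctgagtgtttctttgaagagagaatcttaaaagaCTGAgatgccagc
Snord22 in Snhg1, chr19:8725866-8725991 (+): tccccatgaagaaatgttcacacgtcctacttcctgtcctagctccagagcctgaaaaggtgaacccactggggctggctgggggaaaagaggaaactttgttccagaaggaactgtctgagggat
Snora9 in Snhg15, chr11:6528033-6528165 (-): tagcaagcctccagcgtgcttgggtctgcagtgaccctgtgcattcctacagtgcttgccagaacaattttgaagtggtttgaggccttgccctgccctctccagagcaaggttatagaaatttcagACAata
Snora24 in Snhg8, chr3:123507937-123508066 (-): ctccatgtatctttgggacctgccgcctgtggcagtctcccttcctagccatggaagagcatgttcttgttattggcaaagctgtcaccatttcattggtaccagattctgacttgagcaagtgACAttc
Snora16a in Snhg12, chr4:132309465-132309600 (+): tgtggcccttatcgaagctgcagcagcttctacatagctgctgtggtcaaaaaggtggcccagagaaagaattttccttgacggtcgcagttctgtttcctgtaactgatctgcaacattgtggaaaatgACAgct
Snora73a in Snhg3, chr4:132352775-132352979 (-): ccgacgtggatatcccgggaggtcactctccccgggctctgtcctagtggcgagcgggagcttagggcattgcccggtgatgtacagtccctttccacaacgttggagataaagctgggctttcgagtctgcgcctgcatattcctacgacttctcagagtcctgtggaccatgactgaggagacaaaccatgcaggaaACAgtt
Snora73b in Snhg3, chr4:132352322-132352526 (-): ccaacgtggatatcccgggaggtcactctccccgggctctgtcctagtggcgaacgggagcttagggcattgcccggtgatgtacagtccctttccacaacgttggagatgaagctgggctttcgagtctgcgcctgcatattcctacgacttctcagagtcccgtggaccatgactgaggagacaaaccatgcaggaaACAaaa

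By this rule 17 of the 30 carried both C/D boxes, 7 an ACA near the end and 6 neither. Of 1507 annotated snoRNA genes, 20.2% carried both C/D boxes and 46.1% only the ACA. Snord22 has no match, which says only that these letters are not in these windows. Snora73a and Snora73b, both in Snhg3, are identical at 198 of 205 aligned positions (96.6%), so reads may be divided between them with error.

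Most of the snoRNAs sat at a similar distance from the exon that follows. All 30 lie in an intron of at least 1 transcript of their host, and 28 of the 30 also lie within an exon of another transcript. From the end of the snoRNA to the next exon, the median was 76.5 bases, and 22 of the 30 (73.3%) fell between 60 and 90 bases. Where host transcripts gave different distances, the most common was used. For 504 other snoRNA genes in introns of same-strand genes the median was 1422 bases, and 13.9% fell in that range. Those in the range include Snord33 at 69 bases and Snord42a at 75, so such a distance is not particular to these hosts. The 504 were not matched to the 30 in kind, and include entries such as Gm25428 at 823860 bases. Snora9 in Snhg15, at 1595 bases, was the farthest of the 30. The snoRNAs of a host share its transcript models, so these distances are not independent.

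**Figure D4:**
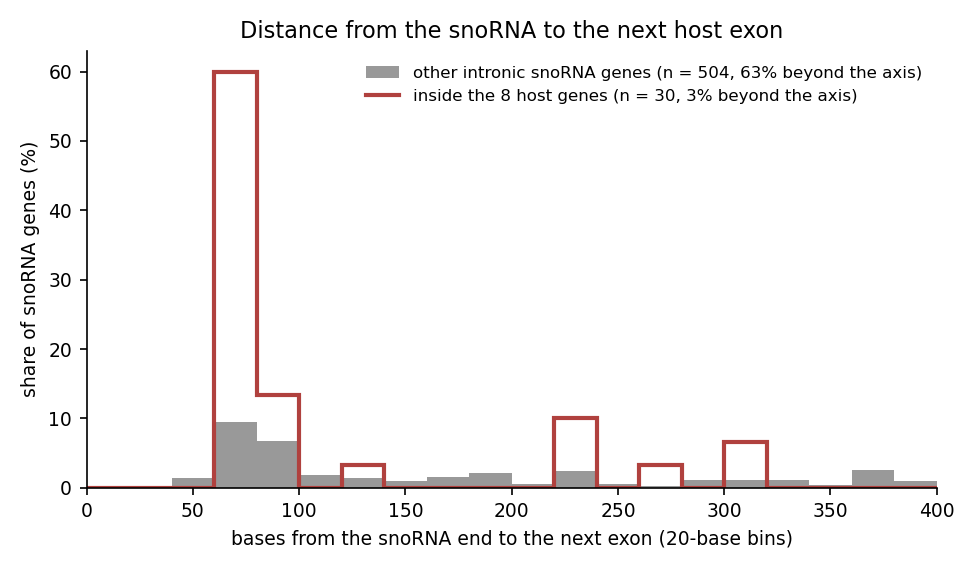
Distance in bases from the end of an intronic snoRNA gene to the next exon of its host, as the share of snoRNA genes (percent) in bins of 20 bases up to 400; the red line is the 30 snoRNA genes inside the 8 hosts and grey the 504 other intronic snoRNA genes. The red line peaks in the bins from 60 to 100 bases, where 22 of the 30 fall between 60 and 90.

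Reads on these snoRNA genes were seen mainly for the longer ones. All 9 that are longer than 100 bases had 10 or more counts summed over libraries, against 3 of the 21 of 100 bases or less, and 17 of the 30 had 0 counts. Of the 9 longer ones, 7 are 126 to 137 bases long and the Snora73 pair 205. For 21 of the 30 the tables give an effective length of 0 in every library, so TPM is listed at 0 even for 4 that had counts (Gm22357, Snord47, Snord87 and, with 8.93 counts in library 2 alone, Mir5117), and counts are used here. Counts on a snoRNA gene may include reads of host RNA with the intron still in place, and this part was not tested.

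Snord22, in Snhg1, needed for maturation of the small-subunit ribosomal RNA, had by far the most, at 2226, 5342 and 542 counts in libraries 1, 2 and 3. Its host Snhg1 had 1715, 2577 and 2115 counts. Snord22 thus had more counts than Snhg1 in libraries 1 and 2 and fewer in library 3. Its TPM of 3583, 7121 and 2079 rests on effective lengths of 5.53, 6.18 and 3.43 bases.

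In Gas5, Snord47 had 217, 393 and 5 counts and Gm22357 109, 969 and 2.91, while 8 of the 10 snoRNA genes there stayed under 10 counts in sum. Snord87 in Snhg6 had 213, 646 and 4 counts beside 227, 225 and 208 for its host. These 3 short box C/D RNAs, the ones with 10 or more counts in sum, each had 5 counts or fewer in library 3.

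Most H/ACA RNAs were also lowest in library 3, but kept more counts there. Snora24 in Snhg8 had 378, 526 and 85.5 counts and Snora9 in Snhg15 had 128, 341 and 90.5. Snora73b had 472, 834 and 287 counts and Snora73a 415, 472 and 248, each more than the 101, 162 and 114 of their host Snhg3. In Snhg12, 1 entry of Snora16a had 156, 144 and 23.6 counts and an overlapping entry of the same RNA 0, 165 and 0, so the reads of Snora16a are divided between near-identical entries. Snora44 had 52.5, 34.2 and 20.1 counts and Snora61 0, 5.70 and 8.32, the only 1 of the 12 with its highest count in library 3.

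**Figure D5:**
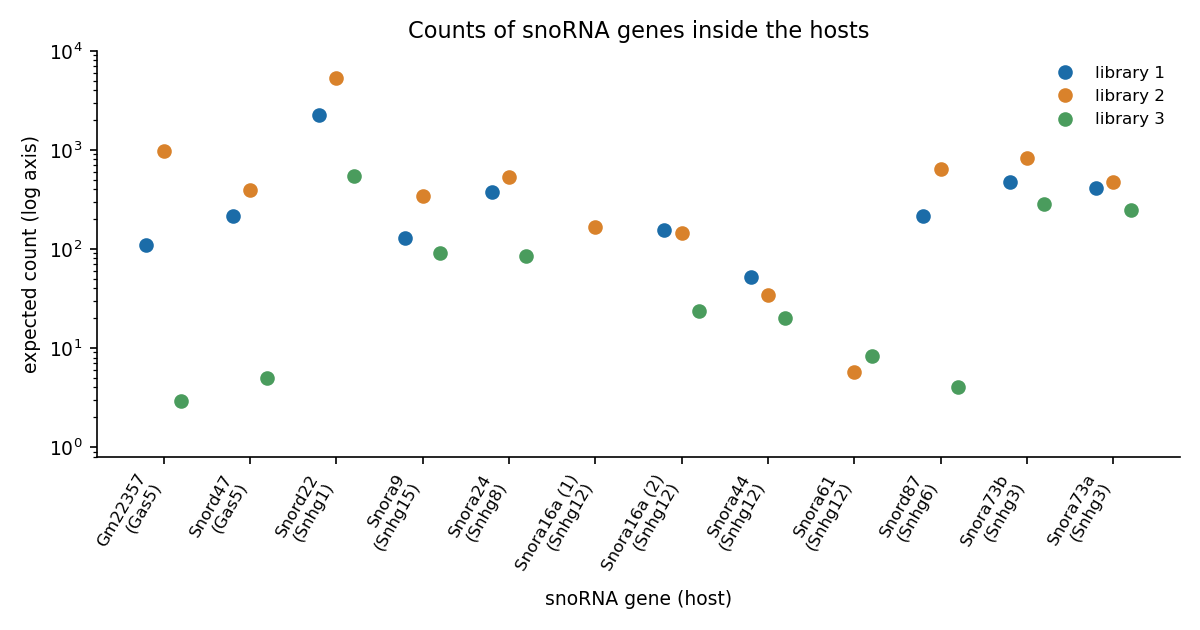
Expected counts (log axis) of the 12 snoRNA genes inside the hosts with 10 or more counts in sum, in libraries 1, 2 and 3, with the host in brackets; counts of 0 (Snora16a entry 1 in libraries 1 and 3, Snora61 in library 1) are not drawn. Library 2 is highest for 9 of the 12 and library 3 lowest for 11, ties at 0 included.

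Summed over the 30, snoRNA counts were 4366, 9879 and 1316, or 44.7, 94.7 and 12.7 per 100 counts of the 8 hosts. The hosts' own counts were 9768, 10430 and 10396. The same order held for snoRNA genes in general, which took 0.710%, 1.23% and 0.340% of all counts. Of 148 snoRNA genes with 10 or more counts, 77.7% had their highest count in library 2 and 82.4% their lowest in library 3. Inside the hosts, library 2 was highest for 9 of 12 and library 3 lowest for 11 of 12, ties included, which are shares of that kind, so nothing particular to the hosts is shown. Library 2 had the shortest upper fragment limit and library 3 the longest, and the part of fragment size was not tested.

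Neighbouring genes overlap some hosts. Zbtb37 overlaps Gas5 by 428 bases on the opposite strand, at 1.38, 1.45 and 2.10 TPM, and Mcmdc2 overlaps Snhg6 by 127 bases, at 0.61, 0.46 and 0.24 TPM. Rcc1, on the strand of Snhg3 and overlapping it by 5592 bases, had 0.30, 0.57 and 0.79 TPM and shares 111 bases at 99.1% identity with Snhg3-205, so counts could be divided wrongly between them. The sources used here give no strand setting for the counting, so it is not known whether reads of a host and of an antisense neighbour were kept apart. Snhg5 shares 233 bases at 96.1% identity with 9330159M07Rik, which had 0.82, 0.71 and 0.71 TPM. Slc3a2, which starts beside Snhg1 in the opposite direction and encodes an amino acid transporter chain, had 6.45, 18.6 and 7.97 TPM.

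Other genes of the same process were measured beside the 8. Of 10 further noncoding hosts matched, 4 were above 1 TPM, 1 below, 3 neither and 2 not tested. Snhg20 (6.94 TPM ± 2.42, SD, n = 3), Zfas1 (6.42 ± 1.58) and Dancr (5.05 ± 1.76) were the highest. All of these stood below Snhg12 and above Snhg3, and Snhg20 and Zfas1 also stood above Snhg6 (6.25 TPM). Snhg11 was listed at 0, and the median of the 10 was 2.11 TPM. Of 28 protein-coding hosts, 28 were above 1 TPM with a median of 139 TPM, led by the ribosomal protein gene Rpl13a (376 ± 81.8 TPM), the chaperone gene Hspa8 (325 ± 58.0) and the ribosomal protein gene Rpsa (257 ± 11.5). The lowest, the RNA helicase gene Ddx39b, stood at 11.5 ± 2.68 TPM.

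Of 10 box C/D particle proteins, 8 were above 1 TPM and none below. The core proteins Nop58 (28.6 ± 2.00 TPM) and Nop56 (17.7 ± 3.45) and the box-binding Snu13 (11.2 ± 0.718) were highest, and the assembly factor Znhit6 (1.14 ± 0.763) lowest. Of 6 H/ACA particle proteins, 3 were above and none below, led by the pseudouridine synthase Dkc1 (6.60 ± 1.21 TPM), Nop10 (5.91 ± 1.14) and Nhp2 (3.01 ± 0.804), with the assembly factor Naf1 lowest at 0.35 ± 0.114.

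All 14 nonsense-mediated decay factors were above 1 TPM. The exon junction proteins Magoh (17.7 ± 1.48 TPM) and Eif4a3 (15.1 ± 1.38) and the kinase Smg1 (10.5 ± 3.85) were highest and Smg8 (2.08 ± 0.848) lowest. Of 13 genes of mTORC1 and its control of pyrimidine-tract mRNAs, 10 were above and none below, led by the GTPase Rheb (10.8 ± 1.40 TPM), the cap-binding Eif4e (9.36 ± 2.14) and the kinase Rps6kb1 (6.03 ± 1.68), with Mlst8 lowest at 1.28 ± 0.478.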

How the data were processed

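Per the accompanying notes and the file headers, the authors quantified each library on mm10 with GENCODE M21 and again with M4; the sources used here do not name the quantifiers, their versions or the strand setting. The deposited tables give expected counts (estimated reads per gene or transcript), TPM scaled by the authors over every row of a table, an effective length and an interval around each TPM, a signal on the TPM scale. Transcript tables of a second kind were made from reads. Rows that name no gene (under 0.001% of counts in each library) were left out of tests.

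Expected counts were rounded and fitted with edgeR 4.0.16 (quasi-likelihood, intercept only). Offsets were logs of the counts equal to 1 TPM (112, 121 and 76.0 for 1000 bases), so the two-sided F test is against 1 TPM. Genes with 10 or more summed counts and an effective length above 0 were tested, with Benjamini-Hochberg adjustment at 0.05; the script was tested on simulated data. Log2 values used TPM + 0.1. Relatives were searched with BLAST+ 2.17.0 (95% identity over 100 bases). DESeq2 1.42.0, limma 3.58.1, TMM scaling, other levels, filters, pseudocounts and tables were alternatives. All 8 genes are named in each result; of each gene list the highest 3 and the lowest are named, of transcripts those at 10% or more in a library, of snoRNAs those with 10 or more counts. The 8 genes and the lists were chosen with earlier results of these data known. Snhg4, Snhg7 and Snhg16 of the listed hosts were not analysed here.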

Additional observations from a re-analysis of the deposited data

How the results depend on the processing

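All 8 genes (6 of 6 matched in the M4 tables) stayed above the fixed level under every alternative run, with a largest adjusted p of 0.00939 in edgeR, DESeq2 or limma and a smallest log2 level of 1.24. Genes above 1 TPM numbered 7640, and 12053 with TPM rescaled to protein-coding genes alone. Genes below numbered 610, and 930 with TMM scaling, 934 with DESeq2 size factors, 227 by DESeq2's Wald test, 6304 by limma, 55 against 0.5 TPM, 2895 against 2 TPM, 1 on the protein-coding scale and 25 to 503 with a library left out (25 without library 1, 81 without library 2, 503 without library 3). The summed level of the 8 genes was 1536 TPM on the protein-coding scale and 268 TPM in the read-based transcript tables, an alternative chosen after seeing the data. With a library left out, the median SD of the 8 genes lay between 0.20 (without library 2) and 0.39 (without library 1), and it was 0.43 when values were not centred on protein-coding genes. With a library left out, Snhg15 minus Snhg8 (log2) lay between -0.34 (library 2 left out) and 0.61 (library 3 left out), at -0.02 with library 1 left out. Snhg12 minus Snhg6 lay between -0.10 (library 2 left out) and 0.50 (library 1 left out), and was 0.60 in the M4 tables and 1.57 by expected counts not divided by length, and Snhg1 minus Snhg15 was -0.076 in the read-based tables. The cause was not tested. No paired analysis was possible because the series holds 1 group. With 3 libraries no sign-flip test can reach 0.05, and Snhg3 rests on 101 to 162 counts per library.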
